A study of Mus musculus with 13 samples.

Results

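The replication-dependent histone genes encode the core histones H2A, H2B, H3 and H4 and the linker histone H1 that package newly made DNA. They were taken as every gene of the authors' deposited table whose symbol begins with Hist1h, Hist2h, Hist3h or Hist4h and whose mean normalised count was above 0. The rule gave 58 genes of 24972 in the table, or of 19909 with reads: 6 of class H1, 13 of H2A, 17 of H2B, 10 of H3 and 12 of H4. A further 11 genes with such names were listed at 0. The replacement histone genes H3f3a and H3f3b, which encode H3.3, were set beside the H3 class.

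PolyA RNA was sequenced from tongue epithelia of 13 mouse samples. The control group was Krt14-Cre(-); LSL-H3K36M (n = 7), and the H3K36M group was Krt14-Cre(+); LSL-H3K36M (n = 6). Every sample therefore carried the LSL-H3K36M allele, a histone H3 with methionine in place of lysine 36 that stays silent until Cre acts. The Krt14 promoter drives Cre in basal cells of stratified epithelia, and effects of Cre and of the mutant histone cannot be told apart here. The sources used here do not give age, sex or any pooling of animals.

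Most genes of this family lack introns, sit in clusters and are transcribed in S phase, when the cell needs histones for new chromatin. Their messenger RNAs usually end a few bases after a conserved stem-loop, which the stem-loop binding protein holds, and carry no poly(A) tail. Some of the genes also give longer, polyadenylated transcripts, for example in differentiated cells. H3f3a and H3f3b have introns, are polyadenylated and are transcribed outside S phase as well. A poly(A) selection therefore sees the polyadenylated transcripts of the family and mostly misses the others, so the values below are no measure of total histone mRNA.

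The stem-loops are shown because they mark where the unpolyadenylated transcript would end. In GENCODE M21 transcripts (GRCm38), the letters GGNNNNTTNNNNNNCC with 6 paired bases on each side were searched on the transcript strand after the stop codon, and 39 of the 58 genes held a match. Capitals mark the paired bases and lower case the loop of 4 bases.
Hist1h3d, Hist1h2ap, Hist3h2ba and others (22 genes): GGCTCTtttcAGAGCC
Hist1h3c, Hist1h1t and others (6 genes): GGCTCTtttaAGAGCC
Hist2h2ac (1 gene): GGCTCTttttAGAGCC
Hist1h4h, Hist1h4n and others (6 genes): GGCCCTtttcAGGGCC
Hist1h4i and Hist2h4 (2 genes): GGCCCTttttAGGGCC
Hist1h4b and Hist1h4j (2 genes): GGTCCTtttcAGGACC
The stems of the 10 H4 genes with a match differed in their letters from those of the other classes, and the first 3 forms were found in no H4 gene. A stem-loop match is a description of the annotated sequence and not a measurement of where these transcripts ended.

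Beyond the stem-loop, 21 genes had at least 100 further annotated bases and 18 had fewer. No match was found in 9 genes, and for 10 genes the annotation ended at the stop codon or named a pseudogene. Mean normalised counts per kb of exon had a median of 1.68 in the genes with long tails, 1.29 in those with short ones, 14.2 in the genes without a match and 1.05 in the last group. The 14.2 was the value of Hist2h3b, whose annotation ended 37 bases after the stop codon. Hist1h2af ended after 1 base and Hist1h1a after 48, whereas the matches lay 21 to 58 bases after the stop codon. In these genes a stem-loop may lie beyond the annotation, so 14.2 does not describe genes that lack one. Of the 13 genes whose mean reached 10 normalised counts, 7 had a long tail, 4 had no match and 2 had a short tail. The 4 without a match were the H2B genes Hist1h2bc, Hist1h2bq, Hist1h2br and Hist2h2be. Hist1h3d had 752 annotated bases beyond the stem-loop, Hist2h3c2 377, Hist3h2ba 169 and Hist1h2bg 155, whereas Hist2h2aa1 had 35 and Hist1h2ap 3.

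**Figure D1:**
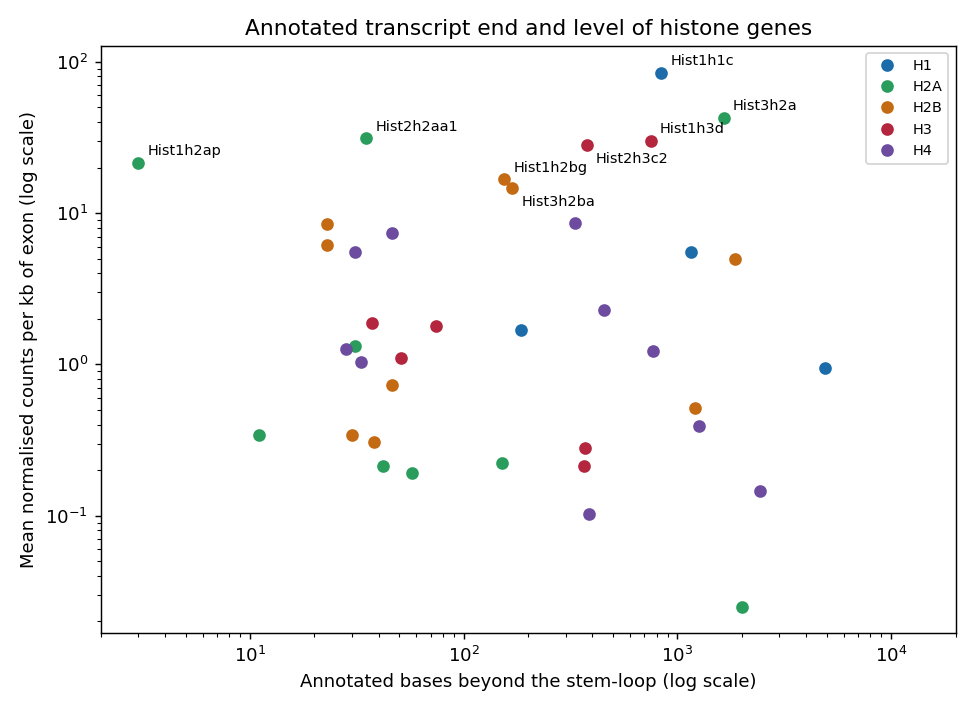
Mean normalised count per kb of exon (log axis) against the annotated bases beyond the stem-loop, 1 point per histone gene with a stem-loop match, coloured by class. Hist1h1c, with 840 bases beyond the stem-loop, was highest at 84.8 per kb, and Hist1h2ap stood at 21.5 per kb with 3 bases.

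Levels of the family were low. Summed over the 58 genes, the authors' deposited table gave 1786 of 15769800 mean normalised counts, or 0.0113%. The mean was under 1 in 28 genes, from 1 to 10 in 17, from 10 to 100 in 11 and above 100 in 2, Hist1h2bc and Hist1h1c. Those 2 had 1151 and 132 normalised counts. The table held no values of single samples, and its group levels are its mean and fold change written another way, so no spread over samples could be given for them. Errors below are the authors' standard errors (SE) of the log2 fold change, H3K36M against control, and 95% intervals were computed from them.

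Of the 58 genes, 41 passed the authors' filter on low means and had an adjusted p. The other 17 had means from 0.0623 to 0.403. At an adjusted p below 0.05 (DESeq2 by the authors), 3 of the 41 passed, against 3.43% of the 17449 genes tested in the table. Hist1h3d and Hist1h2ap were higher in H3K36M, where 1.85% of all tested genes were called higher, and Hist3h2ba was lower, where 1.59% were called lower. At an unadjusted p below 0.05 the count was 6 of 41, against 9.82% of all tested genes, with Hist2h3c2, Hist1h2be and Hist1h2bg added. The fold changes had a median of -0.30 on the log2 scale, with 19 above 0 and 22 below, beside a median of 0.07 over all tested genes. The SE ran from 0.234 to 3.10 and was above 1 in 27 of the 41 genes, so most members could not have passed unless they differed by severalfold.

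**Figure D2:**
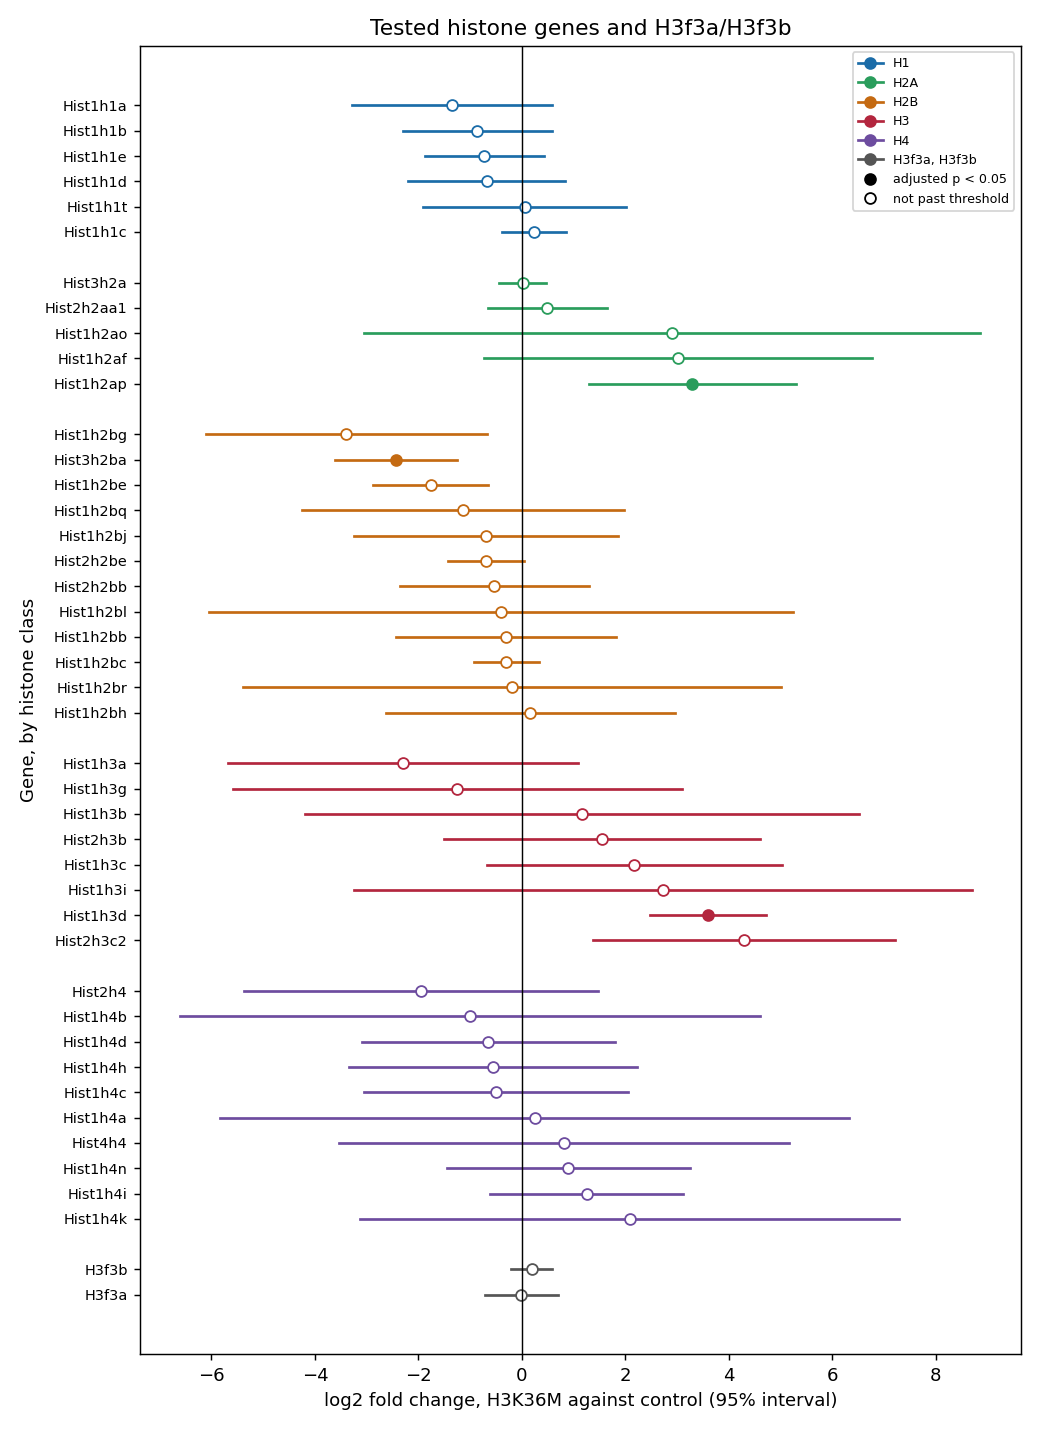
Log2 fold change (H3K36M against control) with its 95% interval for the 41 tested histone genes and for H3f3a and H3f3b, by class. Filled points passed the authors' adjusted p below 0.05. The 3 filled histone genes are Hist1h3d at 3.59, Hist1h2ap at 3.29 and Hist3h2ba at -2.44, and many of the other intervals span several log2 units.

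In the H3 class, transcripts of Hist1h3d were higher in H3K36M, and those of Hist2h3c2 had a larger fitted difference that did not pass the adjusted threshold. In the authors' deposited table, Hist1h3d (ENSMUSG00000099583.2, chr13:23575763-23577011, plus strand) had a level of 6.17 normalised counts in control and 74.5 in H3K36M. Its log2 fold change was 3.59 (SE 0.57, 95% interval 2.48 to 4.71, DESeq2 adjusted p = 7.67e-08), and it passed under 5 of the 6 other settings tried. The other setting admitted genes with a mean of at least 50 alone, and Hist1h3d, at 37.7, was not tested in it. Of its 75-base windows, the read length, 22.1% also occurred in transcripts of other genes, mostly other H3 genes.

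Hist2h3c2 (ENSMUSG00000081058.5, chr3:96238108-96239127, minus strand) stood at 3.0 normalised counts in control and 58.8 in H3K36M in the authors' deposited table. Its log2 fold change was 4.29 with an SE of 1.49, and the DESeq2 adjusted p was 0.0938. The SE implied a coefficient of variation between samples of 1.81, against 0.65 for Hist1h3d. Both values assume a negative binomial model of counts with all libraries equally deep, and are not a measured spread. Of the windows of Hist2h3c2, 62.6% were shared, mainly with Gm20634, Hist2h3c1 and Hist2h3b, so the counts could have been split among copies. Hist2h3c1 was listed at 0. Hist2h3b stood at 3.66 and 10.7 normalised counts (log2 fold change 1.55, SE 1.56) with 78.5% of its windows shared.

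The 7 other H3 genes were near the limit of detection. Their summed level was 3.93 normalised counts in control and 4.96 in H3K36M, a ratio of 1.26, whereas Hist1h3d, Hist2h3c2 and Hist2h3b together went from 12.8 to 144, a ratio of 11.2. Over the whole class the sum was 16.8 in control and 149 in H3K36M. Its log2 ratio was 3.15 with an SE of 0.56 if the members vary independently, which shared windows make doubtful. The labels do not say on which H3 gene the LSL-H3K36M transgene was built, and reads from it cannot be told apart from reads of an H3 gene of the same sequence.

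H3f3a and H3f3b, which make H3.3 throughout the cell cycle, were far higher than the H3 class in both groups. Per kb of exon, the authors' deposited levels gave a sum of 22.1 for the 10 H3 genes in control and 148 in H3K36M, against 7658 and 8132 for H3f3a and H3f3b. The H3 genes thus made up 0.287% of this total per kb in control and 1.79% in H3K36M. The log2 fold change was -0.01 for H3f3a (SE 0.36, 95% interval -0.71 to 0.69) and 0.19 for H3f3b (SE 0.21, 95% interval -0.22 to 0.59). Neither passed the DESeq2 threshold, with adjusted p of 0.998 for H3f3a and 0.990 for H3f3b.

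**Figure D3:**
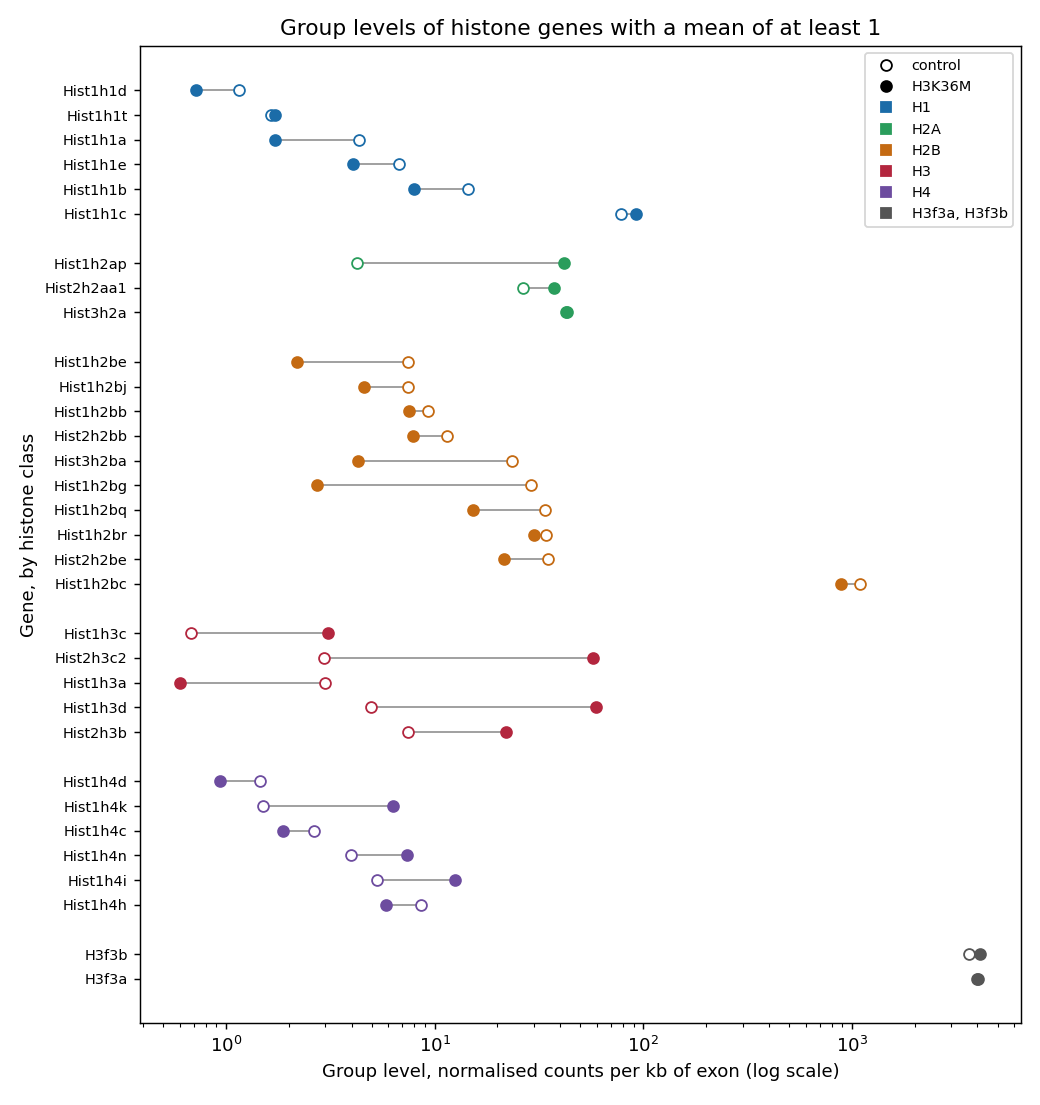
Deposited group levels (normalised counts per kb of exon, log axis) in control (open) and H3K36M (filled) for the histone genes with a mean of at least 1 and for H3f3a and H3f3b, 1 pair of points per gene. The points are fitted group values without error bars, because no sample values were given. Hist1h3d is at 4.94 per kb in control and 59.6 in H3K36M and Hist3h2ba at 23.5 and 4.32, while H3f3a and H3f3b lie to the right of every histone gene plotted.

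Among the H2A genes, Hist1h2ap was higher in H3K36M and the 2 best measured members did not pass the test. Hist1h2ap (ENSMUSG00000094777.2, chr13:21833026-21833507, minus strand) had 2.05 normalised counts in control and 20.1 in H3K36M in the authors' deposited table. Its log2 fold change was 3.29 (SE 1.02, 95% interval 1.30 to 5.29, DESeq2 adjusted p = 0.0382). The call is uncertain on identity, since 92.6% of its windows also occurred in other genes, most often Hist1h2ao. Tested against a log2 change of at least 0.5, its adjusted p was 0.289.

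Hist3h2a, the H2A gene of highest mean, had the narrowest interval of the family. Its deposited levels were 91.3 normalised counts in control and 92.3 in H3K36M, with a log2 fold change of 0.02 (SE 0.23, 95% interval -0.44 to 0.47). The annotated span of Hist3h2a overlaps Trim17 on the same strand, and 30.6% of its windows were shared. Hist2h2aa1 stood at 15.5 and 21.9 normalised counts in the authors' deposited table (log2 fold change 0.49, SE 0.59), and 88.9% of its windows were shared. The other tested H2A genes, Hist1h2af and Hist1h2ao, had 0 control reads and are given with the low genes. All 5 tested H2A genes had a fold change above 0, which 56.6% of all tested genes did, but Hist3h2a was at -0.051 on the log2 scale once fold changes were centred on the median of all tested genes. The 13 H2A genes shared a median of 55.4% of their windows, so the 5 are not separate measurements. The class sum was 110 in control and 138 in H3K36M (log2 ratio 0.32), and it was 1.27 on the log2 scale without Hist3h2a, which held 74.7% of the class.

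H2B was the class with the highest levels, and Hist3h2ba was its member past the threshold, lower in H3K36M. Hist3h2ba (ENSMUSG00000056895.4, chr11:58948920-58949533, plus strand), an H2B gene of the small chromosome 11 cluster, had 14.4 normalised counts in control and 2.65 in H3K36M in the authors' deposited table. The log2 fold change of Hist3h2ba was -2.44 (SE 0.60, 95% interval -3.62 to -1.26, DESeq2 adjusted p = 0.00260), and 13.9% of its windows were shared, with Hist3h2bb-ps. Against a log2 change of at least 0.5, its adjusted p was 0.0844. With a mean of 8.98, it was not tested where a mean of at least 10 was asked for.

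Hist1h2be stood at 33.04 normalised counts in control and 9.72 in H3K36M in the authors' deposited table. Its log2 fold change was -1.77 (SE 0.57, 95% interval -2.87 to -0.66), and the DESeq2 adjusted p of 0.0513 missed the threshold. It passed when the p-values were adjusted over genes with a mean of at least 10 (adjusted p = 0.0475) and when fold changes were centred on the median of all tested genes (adjusted p = 0.0358). The annotated span of Hist1h2be overlaps Hist1h1e on the same strand. Hist1h2bg stood at 17.8 and 1.69 normalised counts, with -3.40 as its log2 fold change (SE 1.39) and a DESeq2 adjusted p of 0.238. Of its windows, 47.4% were shared, most often with Hist1h2bc, whose mean was 1151 against 10.4 for Hist1h2bg.

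Hist1h2bc held 82.0% of the H2B class and 64.5% of all 58 genes by mean normalised count. In the authors' deposited table it had 1260 normalised counts in control and 1024 in H3K36M, with a log2 fold change of -0.30 (SE 0.32, 95% interval -0.93 to 0.33, DESeq2 adjusted p = 0.990). Per kb of exon its mean of 996 compared with 3867 for H3f3b and 4010 for H3f3a. Hist2h2be, with no shared window, stood at 91.2 and 56.5 normalised counts (log2 fold change -0.69, SE 0.37, 95% interval -1.42 to 0.03). Hist1h2br had a mean of 71.6 (SE 2.65) and Hist1h2bq one of 50.7 (SE 1.59). Of their windows, 87.6% and 96.1% were shared, mostly with each other. Hist2h2aa1, with 88.9% of its windows shared, had an SE of 0.59, and a link between sharing and SE was not tested.

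Of the 12 tested H2B genes, 11 had a fold change below 0, as did 43.4% of all tested genes. Most of these members share windows, so the 11 are not separate measurements. The class sum was 1576 normalised counts in control and 1203 in H3K36M (log2 ratio -0.39, SE 0.30 if the members vary independently). Without Hist1h2bc the log2 ratio was -0.82. H2B made up 83.9% of the family's summed level in control and 71.7% in H3K36M, while H3 made up 0.892% and 8.88%.

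None of the 6 linker histone H1 genes passed the DESeq2 adjusted threshold, nor an unadjusted p below 0.05. Hist1h1c, which held 81.5% of the class, had 122 normalised counts in control and 144 in H3K36M in the authors' deposited table (log2 fold change 0.24, SE 0.31, 95% interval -0.38 to 0.85). Hist1h1e stood at 12.97 and 7.85 normalised counts (log2 fold change -0.72, SE 0.59), and Hist1h1b at 10.8 and 5.93 (log2 fold change -0.86, SE 0.74). Hist1h1d and Hist1h1a had fold changes of -0.68 and -1.35, and Hist1h1t, known as the testis-specific H1, one of 0.06 with an SE of 1.0. The class sum was 159 in control and 166 in H3K36M. Its log2 ratio was 0.06, and -0.76 without Hist1h1c.

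None of the 10 tested H4 genes passed the adjusted threshold or an unadjusted p below 0.05 either. Hist1h4i, the H4 gene of highest mean, had 3.84 normalised counts in control and 9.12 in H3K36M in the authors' deposited table (log2 fold change 1.25, SE 0.95, 95% interval -0.62 to 3.12). Hist1h4h stood at 4.06 and 2.76 (log2 fold change -0.56, SE 1.42), and Hist1h4n at 1.70 and 3.17 (log2 fold change 0.89, SE 1.20). Fold changes were above 0 in 5 of the 10 and below 0 in the other 5. The class sum was 16.8 in control and 21.5 in H3K36M (log2 ratio 0.36, SE 0.51 if the members vary independently), and the log2 ratio was -0.06 without Hist1h4i.

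For some genes with few reads, the reads of each library could be recovered from the deposited means. Where a mean is a sum of whole reads, each divided by its library's size factor, it can be split into them, and 13 size factors were read from genes with reads in 1 library. Of 36 histone genes with a summed normalised count of at most 31, 25 had 1 solution in whole reads and 11 had none. The higher group in those 25 was that of the deposited fold change. For genes read in 1 library this was fixed in advance, because libraries were assigned to groups by the sign of such genes' fold changes. In the 14 genes read in both groups, the log2 ratio differed from the deposited log2 fold change by a median of 0.26. The libraries are lettered, 7 control and 6 H3K36M, and were not matched to labelled samples. The counts hold only if reads were counted whole and 1 size factor per library applies, and the 11 genes without a solution did not meet this.

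Several low genes were read in few libraries. These examples were chosen after their values were seen. Hist1h2af had 0 reads in the 7 control libraries and 5, 2, 2, 1, 0 and 0 in the H3K36M libraries. With control set at 3 counts over the whole group, the limit that a count of 0 allows, H3K36M was 3.48-fold higher in normalised reads per library. That ratio takes the H3K36M reads as exact, so it is not a lower limit of the difference. Hist1h3i had 0 control reads and 5, 3, 0, 0, 0 and 0 in H3K36M, 2.85-fold higher on the same terms. Hist1h2ao had 0 control reads and 4, 3, 0, 0, 0 and 0 in H3K36M, 3.28-fold higher. In each of these 3 genes some H3K36M libraries were at 0, so the groups overlapped, and none passed the DESeq2 threshold.

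Other low H3 and H4 genes had more reads in control or more in H3K36M. Hist1h3c had 3 reads over control libraries (2, 1 and 5 libraries at 0) and 11 over H3K36M libraries (4, 3, 2, 2, 0 and 0). Hist1h3a had the reverse order, with 3, 3, 3, 2, 0, 0 and 0 reads in control and 2 reads in 1 H3K36M library. Hist1h4n was read 12 times over 5 control libraries and 20 times over 3 H3K36M libraries (8, 8 and 4). Hist1h4c had 16 reads in control and 10 in H3K36M, and Hist2h4 had 7 and 1. Groups overlapped in each of these genes, and the counts were too low for a difference of this size to be detectable.

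Summed over the 25 genes, control libraries held 92 reads and H3K36M libraries 113. Divided by size factors this was 13.4 ± 6.95 per library (SD, n = 7) in control, with a lowest of 3.24, a median of 13.5 and a highest of 25.6. In H3K36M it was 17.9 ± 12.8 (SD, n = 6), with a lowest of 4.83, a median of 15.4 and a highest of 32.8. The groups overlapped, and the difference of 4.52 was smaller than the SD of either group. It was 1.53 without library j and 1.599 without library k, 2.83 without control library a, and 7.13 and 6.80 without libraries i and l. Of the 113 reads, 95 came from 3 H3K36M libraries, lettered h, j and k, which had 38, 32 and 25 reads, and the other 3 had 7, 6 and 5. Library h also had the largest size factor, 1.77. Divided by size factors, h, j and k held 21.4, 32.8 and 32.5 reads, beside 25.6 in control library d. Whether the same libraries carried the reads of Hist1h3d and Hist1h2ap was not tested, since the sums of these genes were too large to resolve.

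**Figure D4:**
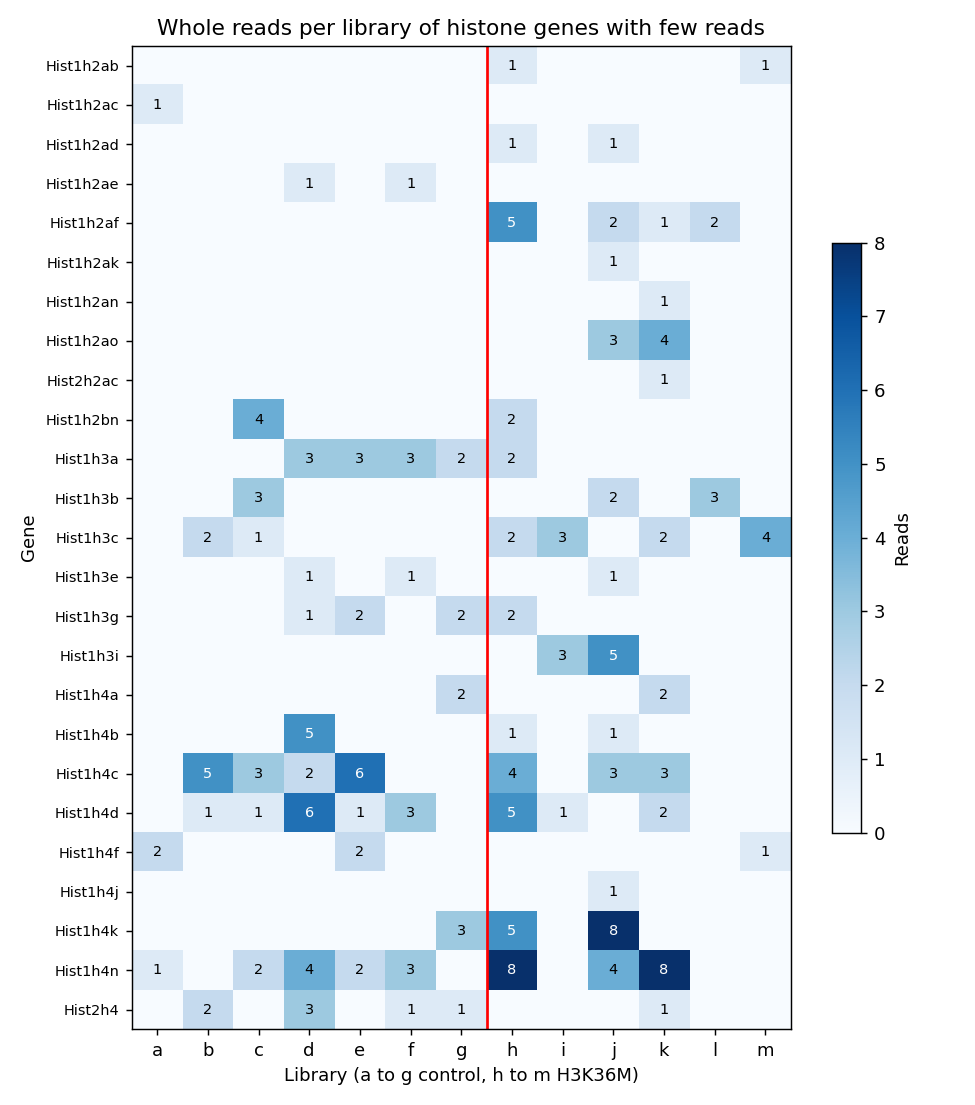
Reads recovered per library for the low histone genes with 1 solution in whole reads, with control libraries a to g and H3K36M libraries h to m. Most cells are at 0, and libraries h, j and k hold 95 of the 113 H3K36M reads, not divided by size factors.

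Called and uncalled genes lay side by side in the clusters. The Hist1 cluster on chromosome 13 held 46 of the 58 genes, of which 32 were tested and 2 called, the Hist2 cluster on chromosome 3 held 7 (6 tested, 0 called), and the Hist3 cluster on chromosome 11 held 3 (2 tested, 1 called). Hist4h4 lies alone on chromosome 6, and Hist1h2al is annotated on chromosome 13 outside the cluster. Hist1h3d lies 3750 bases from Hist1h2bg, whose log2 fold change was -3.40, and 6659 bases from Hist1h2be at -1.77, against 3.59 for Hist1h3d itself. Hist1h2bf, 1567 bases from it, was listed at 0. Hist1h2ap lies 236 bases from Hist1h2br (-0.19, SE 2.65) and 830 bases from Hist1h4n (0.89). Hist3h2ba lies 5152 bases from Hist3h2a, with log2 fold changes of -2.44 and 0.02.

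Promoters of the 3 genes past the threshold are shown because their neighbours in the same clusters did not pass. They are RefSeq sequences on GRCm38.p6, from 250 bases before to 50 after the gene start, read 5′ to 3′ on the gene's strand. Capitals mark CCAAT and TATAAA and their reverse complements.
Hist1h3d promoter, chr13:23575513-23575812, plus strand: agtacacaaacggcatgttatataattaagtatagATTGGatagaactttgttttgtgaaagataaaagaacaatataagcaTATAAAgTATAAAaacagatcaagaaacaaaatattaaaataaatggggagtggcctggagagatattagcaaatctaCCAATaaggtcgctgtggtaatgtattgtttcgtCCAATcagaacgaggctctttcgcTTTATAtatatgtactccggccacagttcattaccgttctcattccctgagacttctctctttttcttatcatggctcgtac
Hist1h2ap promoter, chr13:21833426-21833725, minus strand: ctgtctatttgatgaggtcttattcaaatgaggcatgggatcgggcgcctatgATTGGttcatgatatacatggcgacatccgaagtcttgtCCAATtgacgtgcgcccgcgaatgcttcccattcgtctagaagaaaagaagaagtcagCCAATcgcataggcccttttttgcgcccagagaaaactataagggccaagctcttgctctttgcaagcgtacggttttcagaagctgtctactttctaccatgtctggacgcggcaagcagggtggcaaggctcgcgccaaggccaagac
Hist3h2ba promoter, chr11:58948661-58948960, plus strand: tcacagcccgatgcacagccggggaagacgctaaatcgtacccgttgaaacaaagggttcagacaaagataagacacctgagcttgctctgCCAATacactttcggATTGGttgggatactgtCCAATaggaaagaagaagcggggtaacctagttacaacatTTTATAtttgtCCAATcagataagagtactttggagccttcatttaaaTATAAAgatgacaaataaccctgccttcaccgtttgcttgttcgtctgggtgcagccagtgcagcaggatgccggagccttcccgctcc
The Hist1h3d and Hist3h2ba windows hold both motifs and the Hist1h2ap window holds CCAAT without TATAAA.

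RefSeq promoters were found for 51 of the 58 genes, and 3 motifs were searched on both strands. CCAAT, the letters bound by nuclear factor Y, was in 43 of the 51 windows (84.3%) against 37.4% of 32851 promoters in the table. It was in all matched windows of H1 (6), H2A (12), H2B (14) and H3 (8), and in 3 of 11 of H4. TATAAA was in 28 of 51 (54.9%) against 13.6%. The octamer ATTTGCAT, the letters bound by Oct-1, was in 5 of 12 H2A and 5 of 14 H2B windows and in no window of H1, H3 or H4, against 1.74% of all promoters. Many H2A and H2B genes face each other across 1 short promoter, so their windows are not independent, and a match is not a bound site.

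Other genes of histone supply were described from lists. Over all tested genes, 3.43% passed the DESeq2 adjusted threshold, 9.82% had an unadjusted p below 0.05, and the median log2 fold change was 0.07. Of 11 replacement histone genes, 0 passed the DESeq2 adjusted threshold and 1 had an unadjusted p below 0.05. Their log2 fold changes had a median of 0.22. Of 20 genes that process histone mRNA, 0 passed and 0 had an unadjusted p below 0.05, with a median of 0.18. Slbp, the stem-loop binding protein, had 424 normalised counts in control and 501 in H3K36M in the authors' deposited table (log2 fold change 0.24, SE 0.27), and Npat, the activator of histone gene transcription, had a log2 fold change of 0.03 (SE 0.45). Slbp and Npat were chosen outside the naming rule. The members of highest mean, Ncbp1 and Ncbp2, which make up the nuclear cap-binding complex, had log2 fold changes of 0.02 (SE 0.33) and -0.02 (SE 0.22).

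Of 18 histone chaperone genes, 1 passed, in the lower direction, where 3.43% of all tested genes passed in either direction and 1.59% in the lower. Nap1l4, which carries H2A-H2B dimers, had 1490 normalised counts in control and 1227 in H3K36M in the authors' deposited table (log2 fold change -0.28, SE 0.08, DESeq2 adjusted p = 0.0195). Of 30 S phase and proliferation genes, 0 passed and 0 had an unadjusted p below 0.05. Their median was 0.23, with 24 above 0 and 6 below, beside a median of 0.07 and 56.6% above 0 over all tested genes. The summed level of these 30 genes was 10220 in control and 11056 in H3K36M. Fold changes on the log2 scale were 0.19 (SE 0.42) for the proliferation marker Mki67 and -0.04 (SE 0.30) for Pcna, the replication clamp. The intervals of these genes include changes of modest size in either direction.

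Markers of other cells moved with the groups in which Hist1h3d, Hist1h2ap and Hist3h2ba differed. All 12 keratinocyte genes had reads (summed level 2381750 in control and 1929400 in H3K36M), and 2 of them, Krt76 and Krt14, were lower. All 10 skeletal muscle and all 6 fibroblast genes had reads too, so having reads does not test the tissue label. Over all tested genes, 1.85% were called higher and 1.59% lower. All 8 simple and glandular epithelium genes were higher (210 and 3116). Of 6 tested neutrophil genes 2 were higher, S100a8 (54.8 in control and 792 in H3K36M) and S100a9 (53.9 and 911). The sums over the 6 were 140 and 1806. Ltf, set aside as an outlier in the authors' deposited table, stood at 59.5 and 6440. Whether the reads of S100a8, S100a9 and Ltf came from neutrophils was not tested. The neutrophil genes Elane, Ly6g and Mpo were too low to be tested, with means of 0.149, 0.149 and 0.381. Skeletal muscle genes (10 tested) had 0 calls with a median of -1.86 (96136 and 26440). Lymphocyte genes (7 tested) and fibroblast genes (6 tested) had 0 calls. Of 8 germ cell genes, Prm1, Prm2, Tnp1 and Tnp2 were listed at 0 and 4 had reads. Of those with reads, 3 were tested, with 0 calls and a median log2 fold change of 0.60. The 2 of highest mean, Ddx4 and Sycp3, had means of 1.47 and 1.17 normalised counts. Jchain, of the lymphocyte list, was also set aside as an outlier and stood at 4.31 in control and 37.0 in H3K36M. The part of these cells in the histone differences was not tested, and fewer cells of a type and less RNA per cell cannot be told apart in bulk samples.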

How the data were processed

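The files held 1 table of DESeq2 statistics for H3K36M against control and 2 gene ontology tables, which were not used. Its mean and group levels are normalised counts, a signal unit of the authors' processing per the file headers. The authors also deposited log2 fold changes with their SE, the Wald statistic (a score), and p-values with their adjusted values. The submitters' processing notes name STAR, DESeq2 and GRCm38 and give no versions. The sources used here do not give the counting tool or the annotation, so the treatment of reads that map to several histone genes is not known. Libraries were poly(A)-selected and directional, per the labels' protocols.

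In all 19909 genes with reads, the levels were the mean and fold change re-expressed, so no count test could be fitted and the authors' adjusted p below 0.05 was used. Nothing in the labels says that the 7 and 6 samples were separate animals, so p-values measure the spread between these samples. The members and the 11 context lists were chosen with earlier results of these data known. Genes named were members past the threshold or with an unadjusted p below 0.05, the 3 of highest mean per class, the H3 members, H3f3a and H3f3b, and from each list the calls of smallest adjusted p or the 2 of highest mean. Others named were chosen after their values were seen. Class sums add deposited levels. Whole reads per library had to match the deposited sum to a relative 5e-14, and the search was tested on simulated data. Absolute depth was unknown, and relative depth, as size factors, was between 0.728 and 1.23 (control) or 0.645 and 1.77 (H3K36M). Counts of reads cover counting error only. Alternatives were adjustment over all p-values, minimum means of 10 and 50, centring, a test against a log2 change of 0.5, and a threshold of 0.1. Exon lengths, stem-loops and shared 75-base windows came from GENCODE M21, and promoters from RefSeq. Scripts used Python 3.11.15, pandas 2.3.3, numpy 2.4.6, scipy 1.17.1 and matplotlib 3.10.9.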

Additional observations from a re-analysis of the deposited data

How the results depend on the processing

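The number of histone genes past the threshold was 3 in the authors' adjusted p-values, 3 with the p-values adjusted over all genes, 3 with a mean of at least 10 (Hist1h2ap, Hist1h2be and Hist1h3d) and 4 after centring. It was 0 with a mean of at least 50, where no called member was tested, 1 against a log2 change of at least 0.5 (Hist1h3d), and 5 at an adjusted p below 0.1. Over the 20 named histone genes, 94 of 101 comparisons with an alternative kept their direction and side of the threshold, 2 lost the call (Hist1h2ap and Hist3h2ba), 4 gained one (Hist1h2be and Hist2h3c2), and 1 reversed, Hist3h2a at -0.051 after centring (adjusted p = 0.999). At the threshold of 0.1 a call could be gained but not lost, so those comparisons were partly fixed in advance. Without the member of highest mean, the log2 ratio of the class sums was -0.76 in H1, 1.27 in H2A, -0.82 in H2B, 2.81 in H3 and -0.06 in H4. It turned direction in H1, from 0.06, and in H4, from 0.36. The median log2 fold change was -0.30 over the 58 genes and between -0.37 and -0.06 under the alternatives. No replicate could be left out of the deposited statistics, which hold no values of single samples. Leaving out each recovered library, an alternative chosen after seeing the data, put the difference in summed low reads between 1.53 and 7.13 normalised reads. No paired analysis was possible because the columns carry no replicate numbers. Low means limit most members.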

Other observations

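Histone genes of germ cells whose names fall outside the naming rule of the family gave values in both directions, chosen after they were seen. In the authors' deposited table, Hils1, a linker histone of spermatids, had 2.80 normalised counts in control and 0.260 in H3K36M (log2 fold change -3.43, SE 1.15, DESeq2 adjusted p = 0.0743). H1foo, the linker histone of oocytes, had 0.168 and 2.33 (log2 fold change 3.79, SE 1.79, DESeq2 adjusted p = 0.417). Neither passed the threshold, and their means were 1.63 and 1.17 normalised counts.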
